A study of Rattus norvegicus with 8 samples.

Results

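Pax6 and 7 other homeobox genes (Lhx2, Nkx2-1, Dlx5, Alx1, Hoxa5, Hoxd3 and Hoxc4) were followed across the forebrain and hindbrain parts of rat embryos at E12.5, in wild-type embryos and in embryos described as Pax6 homozygous. They were chosen by name, and every probe set whose only gene symbol in the platform annotation was 1 of these 8 was taken, which gave 10 of the 8799 probe sets of the array and 8 of the 4737 genes it names. Of the 10 probe sets, 8 exceeded the filter on dim values and were tested, 1 for each gene, and those of Hoxa5 and Hoxd3 did so on hindbrain arrays alone. The study asked which genes lie downstream of Pax6, and it had 4 groups of 2 arrays each: wild-type forebrain, Pax6 homozygous forebrain, wild-type hindbrain and Pax6 homozygous hindbrain. Neither the mutant allele, the rat strain nor any pooling of embryos is given in the sources used here. The cut at the isthmus left midbrain, eye primordia and nose primordia with the forebrain, and the pharyngeal arches, with tissue back to forelimb level, with the hindbrain. Since no label says that the 2 arrays of a group come from different litters, p-values reflect only how far these arrays differ, which may be technical.

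Homeobox genes encode transcription factors that bind DNA through a homeodomain, and in the early neural tube many of them are switched on in sharply bounded territories that give each region its identity. Pax6 carries a paired domain beside its homeodomain and is required for eye, nose and dorsal forebrain development. The LIM-homeodomain factor Lhx2 acts in cortical and eye progenitors, Nkx2-1 in the hypothalamus and ventral telencephalon, Dlx5 in the ventral forebrain, olfactory placode and branchial arches, and Alx1 in the mesenchyme around the eye and of the frontonasal region. Hox genes lie in clusters and are expressed from anterior limits within the hindbrain and spinal cord backwards.

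Promoter windows from RefSeq, build GRCr8, were matched for 6 of the 8 genes, all but Dlx5 and Hoxa5. The 250 bases before the gene start are shown for the 4 of these genes that differed between the regions and for Pax6, 5′ to 3′ in the direction of the gene, with each CG dinucleotide in capitals.
Lhx2 (chr3:42535494-42535743, plus strand): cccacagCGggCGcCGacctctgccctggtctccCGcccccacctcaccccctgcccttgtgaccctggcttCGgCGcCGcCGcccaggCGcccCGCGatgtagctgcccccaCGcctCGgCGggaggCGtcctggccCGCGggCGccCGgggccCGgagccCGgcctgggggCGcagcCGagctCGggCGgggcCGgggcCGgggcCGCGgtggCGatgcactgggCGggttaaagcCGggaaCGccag
Nkx2-1 (chr6:79734868-79735117, minus strand): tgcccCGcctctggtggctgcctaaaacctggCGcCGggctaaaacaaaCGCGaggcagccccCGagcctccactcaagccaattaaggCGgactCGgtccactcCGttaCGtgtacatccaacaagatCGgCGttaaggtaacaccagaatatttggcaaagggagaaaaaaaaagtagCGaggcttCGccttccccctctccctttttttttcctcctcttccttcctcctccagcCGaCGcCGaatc
Alx1 (chr7:40063779-40064028, minus strand): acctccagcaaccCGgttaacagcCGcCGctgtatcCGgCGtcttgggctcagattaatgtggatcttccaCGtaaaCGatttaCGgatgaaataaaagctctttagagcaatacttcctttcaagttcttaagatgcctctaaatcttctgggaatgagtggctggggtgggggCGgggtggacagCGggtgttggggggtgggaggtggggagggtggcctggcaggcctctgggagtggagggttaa
Hoxd3 (chr3:80045876-80046125, plus strand): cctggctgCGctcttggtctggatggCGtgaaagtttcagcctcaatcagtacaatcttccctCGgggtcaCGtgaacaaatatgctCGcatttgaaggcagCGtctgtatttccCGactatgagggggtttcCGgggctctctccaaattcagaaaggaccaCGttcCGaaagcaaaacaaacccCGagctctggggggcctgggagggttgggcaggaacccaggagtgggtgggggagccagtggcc
Pax6 (chr3:112590346-112590595, plus strand): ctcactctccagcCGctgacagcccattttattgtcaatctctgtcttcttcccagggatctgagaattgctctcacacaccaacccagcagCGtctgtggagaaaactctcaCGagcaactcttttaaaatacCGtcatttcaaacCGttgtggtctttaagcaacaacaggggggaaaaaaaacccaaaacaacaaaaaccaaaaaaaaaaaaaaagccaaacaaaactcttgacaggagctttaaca
The Lhx2 window held 33 CG dinucleotides and 80.8% G and C, which is percentile 99.2 of G and C content among 33469 rat promoter windows. Those of Nkx2-1, Alx1 and Hoxd3 held 17, 10 and 11 CG dinucleotides, and that of Pax6 held 5, which is the median of all windows. The letters TAAT, the core that many homeodomains bind, were searched on both strands. They occurred 1 time in the window of Nkx2-1, 1 time in that of Hoxc4 and 0 times in those of Pax6, Lhx2 and Hoxd3. In the Alx1 window they occurred 2 times, on opposite strands and overlapping within a single stretch. Of all windows, 57% held them at least once.

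All values are intensities on the linear scale of the deposited table, in which the mean of each array, after leaving out the lowest and highest 2% of its values, was 2500. The 5th percentile of the intensities was below 0 on every array, and its size, taken as the array's noise level, lay between 243 and 619.8. In each of the 4 groups the array labelled 1st had the higher noise level. Log2 values of both arrays of a group correlated across the tested probe sets with r between 0.899 and 0.947. In bulk tissue, fewer cells that express a gene and less RNA per cell cannot be told apart, and this holds for every difference below. Tests were made with limma on log2 intensities over 5881 probe sets, with Benjamini-Hochberg adjustment over all of them and a threshold of 0.05.

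**Figure D1:**
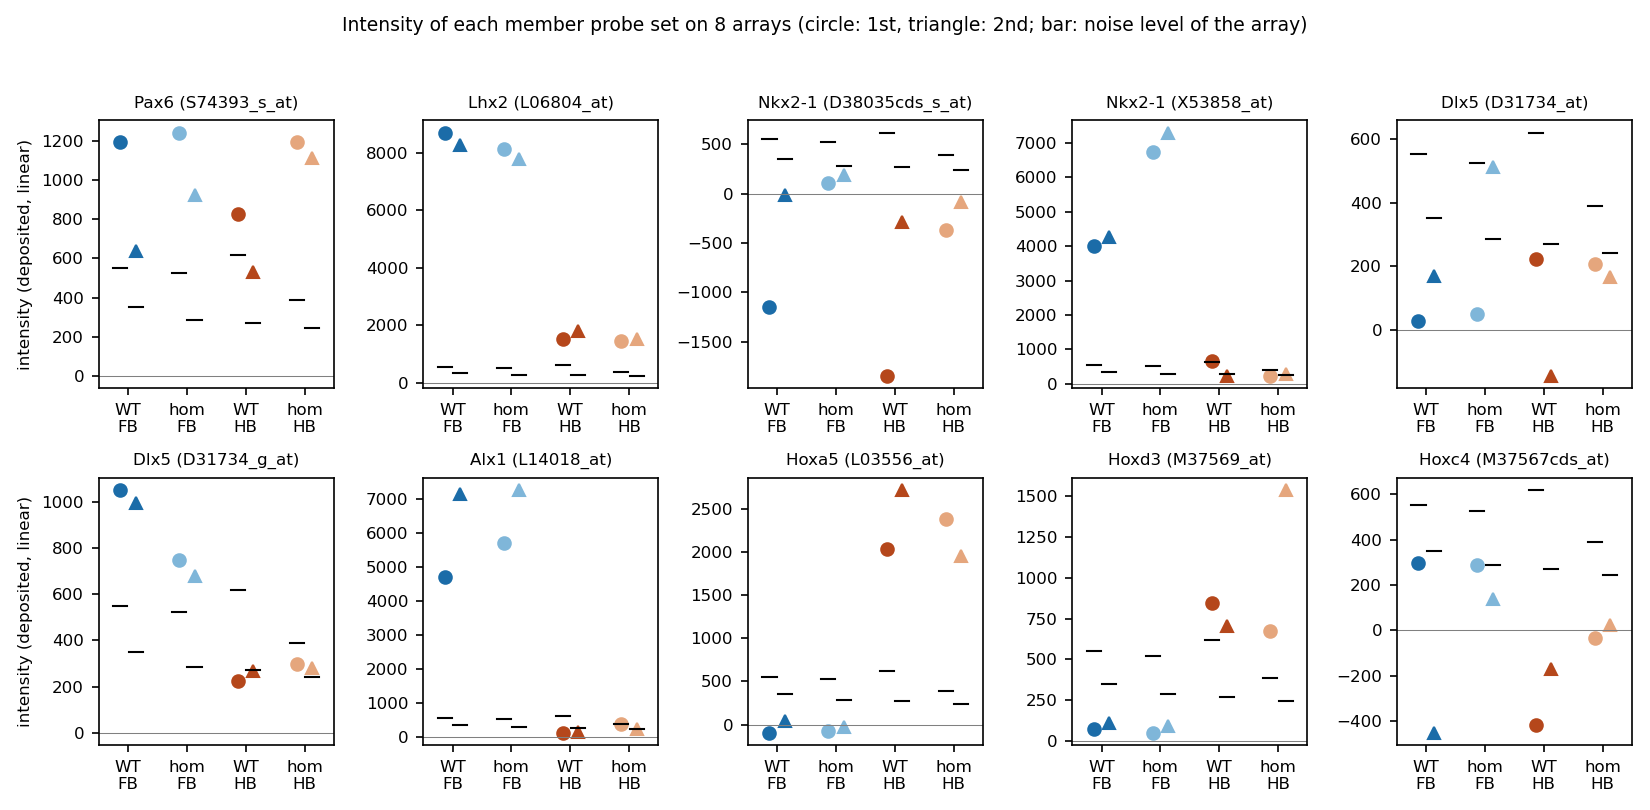
Deposited intensity (linear y axis) of each of the 10 member probe sets in wild-type (WT) and Pax6 homozygous (hom) forebrain (FB) and hindbrain (HB), with the 1st array as a circle, the 2nd as a triangle and each array's noise level as a short black bar. Lhx2, Nkx2-1 (X53858_at) and Alx1 stand high on all 4 forebrain arrays, Hoxa5 and Hoxd3 on all 4 hindbrain arrays, and Pax6 shows no such split.

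Between the regions, 6 of the 8 tested member probe sets passed over both genotypes. Of them, 4 (Lhx2, Nkx2-1, Dlx5 and Alx1) were higher in forebrain and 2 (Hoxa5 and Hoxd3) higher in hindbrain. Over all probe sets, 89 of 5881 (1.51%) passed, with 17 of 5881 (0.289%) higher in forebrain and 72 of 5881 (1.22%) higher in hindbrain. Within wild-type embryos 4 member probe sets passed (Lhx2, Nkx2-1, Alx1 and Hoxa5), 3 higher and 1 lower in forebrain, against 46 of 5881 (0.782%) of all, 12 of 5881 (0.204%) higher and 34 of 5881 (0.578%) lower. An unadjusted p under 0.05 was reached by 6 members and by 336 of 5881 (5.71%) of all. Within Pax6 homozygous embryos the same 4 passed, against 27 of 5881 (0.459%), 8 of 5881 (0.136%) higher and 19 of 5881 (0.323%) lower in forebrain. Here too 6 members had an unadjusted p under 0.05, as had 351 of 5881 (5.97%) of all. Over both genotypes the 4 forebrain arrays did not overlap the 4 hindbrain arrays for the same 6 genes, a pattern that 134 of 5881 (2.28%) probe sets showed with forebrain higher and 257 of 5881 (4.37%) with hindbrain higher. Dlx5 and Hoxd3 passed in neither genotype alone. The genes were picked with regional results of these arrays known, so these counts describe the genes and do not test them as a group.

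Pax6, read by the probe set S74393_s_at, was above noise on all 8 arrays and did not separate the regions. The wild-type forebrain arrays read 1197 and 636, and those of Pax6 homozygous forebrain 1243 and 927. Hindbrain gave 827 and 531 for wild-type and 1194 and 1111 for Pax6 homozygous embryos. The forebrain and hindbrain values overlapped in both genotypes. The log2 difference, forebrain minus hindbrain, was 0.40 ± 0.42 (limma's SE) in wild-type embryos, with a 95% interval of -0.56 to 1.35, and -0.10 ± 0.42 in Pax6 homozygous embryos, with an interval of -1.06 to 0.85 (adjusted p = 0.999 and 0.998). Each interval includes differences in either direction.

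The highest mean of Pax6 was in Pax6 homozygous hindbrain (1153 ± 58.6, mean ± SD, n = 2 arrays), followed by Pax6 homozygous forebrain (1085 ± 224), wild-type forebrain (917 ± 397) and wild-type hindbrain (679 ± 209). Of the neighbours in this order, both Pax6 homozygous groups overlapped, as did Pax6 homozygous and wild-type forebrain, and wild-type forebrain and hindbrain. In hindbrain both Pax6 homozygous arrays lay above both wild-type arrays, with a log2 difference, Pax6 homozygous minus wild-type, of 0.80 ± 0.42 (adjusted p = 0.989), and the genotypes separated without overlap in hindbrain, in either direction, for 2031 of 5881 (34.5%) probe sets. The labels do not say which part of the transcript the probe set covers, so its level is no check of the genotype. The 1st array read higher than the 2nd in all 4 groups, by 0.10 to 0.91 on the log2 scale, as it did for 1546 of 5881 (26.3%) probe sets.

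Lhx2 had the smallest SE of its regional difference among the 8 tested members. Wild-type forebrain read 8692 and 8273, Pax6 homozygous forebrain 8129 and 7768. The hindbrain arrays read 1519 and 1801 in wild-type and 1444 and 1515 in Pax6 homozygous embryos, all above noise. Every forebrain array lay above every hindbrain array, and the regional log2 difference was 2.36 ± 0.20 in wild-type (5.13-fold, adjusted p = 0.000692) and 2.43 ± 0.20 in Pax6 homozygous embryos (5.37-fold, adjusted p = 0.000823). These ranked 9th and 6th of 5881 by p. The difference between these 2 regional differences, Pax6 homozygous minus wild-type, was 0.07 ± 0.28, with a 95% interval of -0.56 to 0.70. In each region the Pax6 homozygous readings were the lower, without overlap. Pax6 homozygous minus wild-type gave a log2 difference of -0.09 ± 0.20 in forebrain and -0.16 ± 0.20 in hindbrain, and neither passed (adjusted p = 1 and 0.991). Such a separation, in either direction, was seen for 1355 of 5881 (23%) probe sets in forebrain and 2031 of 5881 (34.5%) in hindbrain.

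Lhx2 is also a gene of the optic vesicle, and eye tissue went with the forebrain part. The summed intensity of 18 lens probe sets (10 genes, negative readings counted as 0) was 10308 to 11550.4 on the wild-type forebrain arrays and 3580.4 to 4874 on the Pax6 homozygous forebrain arrays, against 3362 to 5972 in hindbrain. Of the 10 lens genes, 3 to 7 were above noise on a wild-type forebrain, 3 to 4 on a Pax6 homozygous forebrain and 2 to 7 on a hindbrain array. Cryaa, the lens crystallin alpha A, read 4919 and 5254 in forebrain of wild-type embryos and 1303 and 683 in that of Pax6 homozygous embryos. For Mip (X53052cds_at) the genotypes overlapped there, with 1669 and 1449 in wild-type and 1547 and 1190 in Pax6 homozygous embryos. Of 8 lens probe sets tested with limma, 7 lay lower in Pax6 homozygous forebrain, 0 passed and 2 had an unadjusted p under 0.05. On the Pax6 homozygous forebrain arrays the lens sums lay within the hindbrain range. Lens genes do not measure the optic vesicle, and no set of optic vesicle genes was summed. The part of eye tissue in the Lhx2 level was not tested.

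Nkx2-1 was read by a pair of probe sets that disagreed. By X53858_at wild-type forebrain read 4011 and 4276, Pax6 homozygous forebrain 6738 and 7299.6. Hindbrain read 658 and 228 for wild-type and 234 and 272 for Pax6 homozygous embryos, with 1 of 2 arrays of each genotype above noise. The other probe set, D38035cds_s_at, lay between -1845 and 196, was above noise on 0 of 8 arrays and was not tested. By X53858_at all 4 forebrain arrays stood above all 4 hindbrain arrays. The regional log2 difference was 3.42 ± 0.46 in wild-type (10.7-fold, adjusted p = 0.0101) and 4.79 ± 0.46 in Pax6 homozygous embryos (27.8-fold, adjusted p = 0.00156). These folds rest on hindbrain readings near noise, and a floor at the pooled median made the log2 differences 2.86 and 3.82. The wild-type call ended without either wild-type forebrain array (adjusted p = 0.0587 and 0.0693), without an intensity trend (0.0643), without a filter (0.153) and with the 4 wild-type arrays alone (0.0504). The mean of both probe sets gave a log2 difference of 1.71 in wild-type (adjusted p = 0.564) and 3.22 in Pax6 homozygous embryos (0.0648), where the call also ended without a filter (0.0592).

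In forebrain, both Pax6 homozygous arrays read higher for Nkx2-1 than both wild-type arrays, with means of 7019 ± 397 and 4144 ± 188 (mean ± SD, n = 2 arrays each). The log2 difference was 0.76 ± 0.46 (1.69-fold, 95% interval -0.28 to 1.80) and did not pass (adjusted p = 1). A separation without overlap in forebrain was common to 23% of the probe sets tested, in either direction. The interaction, the regional difference in Pax6 homozygous minus that in wild-type embryos, was 1.37 ± 0.65 (adjusted p = 0.9995), and 0.61 without the 1st wild-type hindbrain array and 2.14 without the 2nd.

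Dlx5 was above noise in forebrain alone by 1 probe set, apart from 1 hindbrain array, and its probe sets also disagreed. By D31734_g_at wild-type forebrain gave 1053 and 995 and Pax6 homozygous forebrain 747 and 678, all above noise. The hindbrain readings were 226 and 268 for wild-type and 298 and 280.5 for Pax6 homozygous embryos, and 1 of these 4 was above noise. The other probe set, D31734_at, was above noise on 1 of 8 arrays, the 2nd Pax6 homozygous forebrain array (513), and was not tested. All forebrain arrays of D31734_g_at stood above all hindbrain arrays, and over both genotypes the log2 difference was 1.68 ± 0.30 (adjusted p = 0.0286). Within wild-type embryos it was 2.06 ± 0.42, at least 2.5-fold since no hindbrain array rose above noise (adjusted p = 0.0994), and within Pax6 homozygous embryos 1.30 ± 0.42 (adjusted p = 0.486). A fold given as "at least" was computed from mean log2 values, with any dim reading raised to the noise level of its own array. The call over both genotypes rested on every array: leaving out any 1 of the 8 ended it, with adjusted p from 0.0659 without the 2nd wild-type hindbrain array to 0.161 without the 2nd Pax6 homozygous hindbrain array. With the floor at the pooled median Dlx5 passed in each genotype, at smaller log2 differences. These were 1.04 in wild-type (adjusted p = 0.00678) and 0.52 in Pax6 homozygous embryos (0.0455). That floor (497) lay above all 4 hindbrain readings and made them equal. Their spread was thereby removed, so these 2 calls add no support. In wild-type Dlx5 also passed without an intensity trend (0.0152). The call over both genotypes also ended with the mean of both probe sets (log2 difference 0.74, adjusted p = 0.881).

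Alx1 was bright in forebrain and below noise in hindbrain in both genotypes. Forebrain intensities were 4692 and 7155 for wild-type and 5695 and 7274 for Pax6 homozygous embryos. The hindbrain arrays gave 116 and 128 (wild-type) and 378 and 232 (Pax6 homozygous), and none of these 4 readings exceeded its array's noise level. Forebrain was therefore at least 14.1-fold higher in wild-type (adjusted p = 0.0004, ranked 2nd of 5881 by p) and at least 20.9-fold higher in Pax6 homozygous embryos (adjusted p = 0.00102, ranked 7th). With the floor under dim values raised from the pooled 25th percentile to the pooled median, the wild-type log2 difference went from 5.57 to 3.54 and still passed (adjusted p = 0.0146). The raised floor lay above all 4 hindbrain readings and made them equal. The forebrain values of both genotypes overlapped, with a log2 difference of 0.15 ± 0.37 (Pax6 homozygous minus wild-type, 95% interval -0.70 to 1.00).

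Other genes of head and arch mesenchyme were set beside Alx1. Of 9 head and arch mesenchyme genes on the array, 8 to 9 were above noise on each array, and their summed intensity was 81951 to 92806 on forebrain and 85741 to 102738 on hindbrain arrays. Of the 14 probe sets of this list that were tested, 0 passed between the regions over both genotypes (limma), and 11 lay on the hindbrain side (median log2 difference, forebrain minus hindbrain, -0.24, against -0.02 for all). An unadjusted p under 0.05 was reached by 2 of the 14, against 8.09% of all, and in both every hindbrain array lay above every forebrain array. For the growth factor receptor gene Pdgfra (rc_AI232379_at) the hindbrain arrays gave 6457 and 4939 (wild-type) and 5517 and 5291 (Pax6 homozygous). The forebrain arrays gave 4684 and 3539.8 and 3142 and 3960.3 in the same order. Other Pdgfra probe sets were dim: rc_AI137657_at and Z14118cds_at lay below noise on every array. Z14118cds_g_at rose above it only on the 2nd Pax6 homozygous hindbrain array (376.5). For Twist2, a factor of mesenchyme and dermis, the hindbrain readings were 889.5 and 1050 (wild-type) and 481 and 957 (Pax6 homozygous), and the forebrain readings 324 and 416 and 391 and 434. Both of these lay on the hindbrain side, while 3 of the 14 lay on the forebrain side, as Alx1 did. Among those 3 was Msx1 (D83036_at), with a log2 difference of 0.28 ± 0.22. The part of mesenchyme in the Alx1 level was not tested.

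Hoxa5, a gene of the caudal hindbrain, the neck-level spinal cord and the adjoining mesoderm, and Hoxd3, which patterns the upper neck vertebrae, showed the reverse arrangement. Wild-type hindbrain read 2040.5 and 2723 for Hoxa5, Pax6 homozygous hindbrain 2378 and 1955. The forebrain readings were -95.5 and 37 (wild-type) and -77.8 and -27.7 (Pax6 homozygous), none above noise. Hindbrain was at least 5.35-fold higher in wild-type (adjusted p = 0.00114) and at least 5.56-fold higher in Pax6 homozygous embryos (adjusted p = 0.00156). The latter call ended without the 1st or the 2nd Pax6 homozygous hindbrain array (adjusted p = 0.0771 and 0.0696). Both genotypes overlapped in hindbrain, with a log2 difference of -0.13 ± 0.52 (95% interval -1.32 to 1.06).

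For Hoxd3 wild-type hindbrain gave 844 and 702 and Pax6 homozygous hindbrain 676 and 1539.7, the 2nd Pax6 homozygous array standing well above the other 3. Forebrain gave 71.6 and 113 (wild-type) and 50.2 and 93.8 (Pax6 homozygous), none above noise. Hindbrain was at least 2.14-fold higher over both genotypes (adjusted p = 0.00869), at least 1.75-fold in wild-type (adjusted p = 0.138) and at least 2.63-fold in Pax6 homozygous embryos (adjusted p = 0.0633). Raising the floor to the pooled median ended the call over both genotypes, and the log2 difference, forebrain minus hindbrain, went from -3.50 to -0.83 (adjusted p = 0.444). It also ended without a filter (0.0543) and without the 2nd Pax6 homozygous hindbrain array (0.126).

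Hoxc4, from another Hox cluster, was above noise on 0 of 8 arrays. Forebrain readings were 295 and -452 (wild-type) and 287 and 138 (Pax6 homozygous), and hindbrain readings -415 and -169 (wild-type) and -35.6 and 23 (Pax6 homozygous). It passed the filter through 2 forebrain arrays that were themselves below noise, so no direction is read from it. Hoxb7 and Hoxc8, the other Hox genes on the array outside the 8 members, were likewise above noise on 0 arrays and were not tested.

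Genes of muscle and of motor neurons read higher on the same arrays as Hoxa5 and Hoxd3. The summed intensity of 18 muscle probe sets (11 genes) was 29344 to 36338 on hindbrain and 3039 to 6407 on forebrain arrays, with 7 to 10 genes above noise in hindbrain and 3 in forebrain. Of 14 muscle probe sets tested, 4 passed as higher in hindbrain over both genotypes, against 1.22% of all, and 0 as lower. For 11 probe sets (7 genes) of motor neurons and caudal neural tube the sum was 6320.2 to 10620.1 in hindbrain and 2916 to 3589 in forebrain, and 1 of 9 tested passed. It was Prph, which encodes the peripheral neuron filament peripherin, above noise on 4 of 4 hindbrain and 0 of 4 forebrain arrays and at least 3.6-fold higher in hindbrain (adjusted p = 0.00576). Of the cholinergic genes, Chat was above noise on 0 of 8 arrays, and the vesicular transporter gene Slc18a3 was read by 2 probe sets that disagreed. By X80395cds_s_at all 4 hindbrain arrays (537 to 649.7) lay above all 4 forebrain arrays (249 to 332), with an adjusted p of 0.223, and by U09211_at the regions overlapped. The part of these tissues in the Hox levels was not tested.

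**Figure D2:**
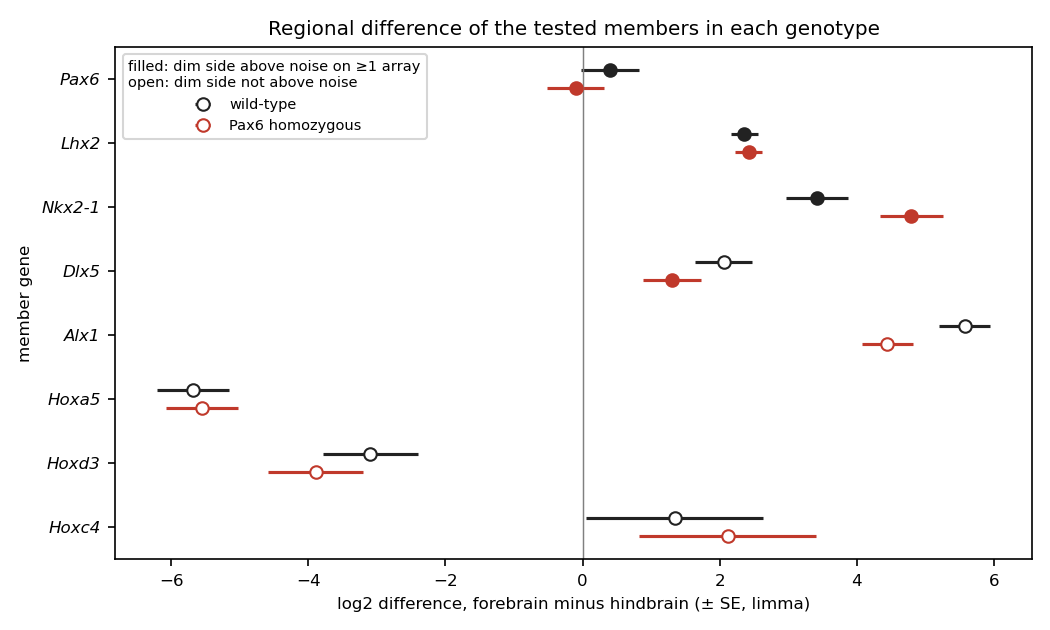
Log2 difference, forebrain minus hindbrain (x axis, ± SE from limma), for the 8 tested member genes in wild-type (black) and Pax6 homozygous embryos (red). Open symbols mark differences whose lower side had no array above noise, so that their size depends on the floor; for Hoxc4 neither side was above noise. Lhx2, Nkx2-1, Dlx5 and Alx1 lie to the right of 0 and Hoxa5 and Hoxd3 to the left in both genotypes, and Pax6 lies at 0.40 and -0.10.

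The genotypes were then compared within each region. With limma, 0 of the 8 tested member probe sets passed in forebrain and 0 in hindbrain, where 1 of 5881 (0.017%) and 1 of 5881 (0.017%) of all probe sets passed. An unadjusted p under 0.05 was reached by 0 members and 172 of 5881 (2.92%) of all in forebrain, and by 1 member and 264 of 5881 (4.49%) of all in hindbrain. That member was Alx1, whose 4 hindbrain readings were all below noise. Blood genes were set beside this comparison. All 8 tested blood probe sets (7 genes) had lower means in Pax6 homozygous than in wild-type forebrain (median log2 difference -0.45, against 0.01 for all), 0 passed, and 3 had an unadjusted p under 0.05. Their summed intensity was 155676 to 158156 in Pax6 homozygous and 186770 to 201727 in wild-type forebrain, and 150786 to 152011 and 164894 to 173282 in hindbrain. The part of blood in the genotype differences was not tested. The intervals set what could have gone unseen. For Lhx2 in forebrain the 95% interval of the log2 difference ran from -0.54 to 0.35, and for Hoxd3 in hindbrain from -1.17 to 1.98. A p above the threshold does not show that the genotypes were alike.

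Whether a regional difference depended on genotype was tested as an interaction, in which 0 members and 0 of 5881 (0%) of all probe sets passed, while an unadjusted p under 0.05 was reached by 0 members and 112 of 5881 (1.9%) of all. The interaction (Pax6 homozygous minus wild-type) was -1.13 ± 0.53 for Alx1, -0.76 ± 0.60 for Dlx5, 0.13 ± 0.74 for Hoxa5, -0.80 ± 0.98 for Hoxd3 and -0.50 ± 0.59 for Pax6, each with an adjusted p of 0.9995. That of Alx1 came from hindbrain readings below noise, and a floor at the pooled median made it 0.15. All 6 genes called between the regions had the same direction in wild-type and Pax6 homozygous embryos.

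**Figure D3:**
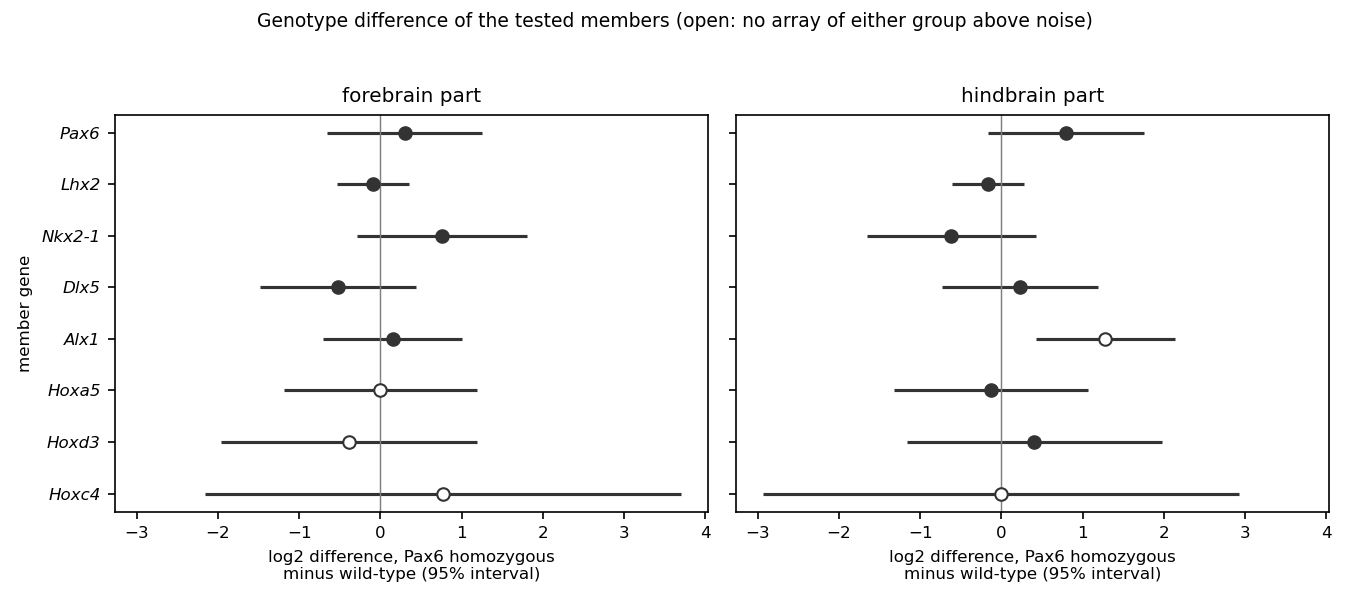
Log2 difference, Pax6 homozygous minus wild-type (x axis, with 95% intervals from limma), for the 8 tested member genes in the forebrain part (left) and the hindbrain part (right); open symbols mark genes with no array of either group above noise. Each interval includes 0 except that of Alx1 in hindbrain (0.43 to 2.13), where all readings were below noise.

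Other homeobox and patterning genes on the array were taken from family lists. The lists held 26 such genes with 31 probe sets, of which 26 were tested. With limma, 0 of the 26 passed in any of the 6 comparisons. An unadjusted p under 0.05 was reached by 10 between the regions over both genotypes, against 476 of 5881 (8.09%) of all, by 8 in wild-type and by 3 in Pax6 homozygous embryos. Their median log2 difference between the regions over both genotypes was -0.31, against -0.02 for all probe sets tested. The 4 tested LIM probe sets (3 genes) all lay on the hindbrain side (median -2.07). So did the 3 of other Pax genes (2 genes, -0.66) and the 2 of Nkx genes (-0.36). Of these, Isl2 was above noise on 1 hindbrain array only and lay on the forebrain side within wild-type embryos (log2 difference 1.28). A Pax4 probe set, AF053100_g_at, was above noise on 0 arrays and had a log2 difference of -0.07. Of 8 paired-like probe sets 6 lay on the hindbrain side (-0.22), and of 9 for patterning factors 5 did (-0.04).

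Among LIM homeobox genes, Isl1, a factor of motor and cranial sensory neurons, gave 3096 and 2807 in wild-type and 1726 and 2705 in Pax6 homozygous hindbrain. Its forebrain readings were 107 and 635 (wild-type) and 805 and 955 (Pax6 homozygous), so every hindbrain array lay above every forebrain array (log2 difference -2.40 ± 0.50, adjusted p = 0.0614). Lhx1 was above noise on the wild-type hindbrain arrays alone (1000.4 and 304), and its Pax6 homozygous hindbrain readings (270.1 and 58.1) also lay above every forebrain reading (adjusted p = 0.307). Among paired-like genes, Phox2a, required for cranial motor and noradrenergic neurons, read 660.5 and 843 in wild-type and 689 and 855 in Pax6 homozygous hindbrain and was not above noise in forebrain. Its log2 difference was -2.33 ± 0.55 (at least 1.83-fold, adjusted p = 0.108). Uncx, a gene of somites and of some spinal neurons, read 657 and 1526 in wild-type and 582 and 1303 in Pax6 homozygous hindbrain, above all 4 forebrain arrays, of which 1 was above noise (adjusted p = 0.117).

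Among signals and POU factors, Shh, the ventralising morphogen that acts upstream of Nkx2-1 in the forebrain, read 1818 and 967 in wild-type and 2604 and 1409.8 in Pax6 homozygous forebrain. Hindbrain gave 504 and 808 (wild-type) and 990.5 and 957 (Pax6 homozygous), a log2 difference of 1.02 ± 0.32 (adjusted p = 0.277), with the ranges overlapping when genotypes were pooled. For Pou3f4 wild-type forebrain read 638 and 543 and wild-type hindbrain 1804 and 1176. Of the Pax6 homozygous forebrain arrays (1180.4 and 1064) only the 1st reached that range, and Pax6 homozygous hindbrain read 1319 and 1776. The regional difference over both genotypes had an adjusted p of 0.194, and the genotype difference in forebrain did not pass either. Nkx6-1, a gene of ventral hindbrain and spinal cord progenitors, had a log2 difference of -0.69 ± 0.25 and the cardiac gene Nkx2-5 of -0.02 ± 0.31. Of the other Pax genes, Pax8 had -0.66 ± 0.49 and Pax4 -0.81 ± 1.06. None of these passed (adjusted p from 0.194 for Pou3f4 to 0.999 for Nkx2-5).

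**Figure D4:**
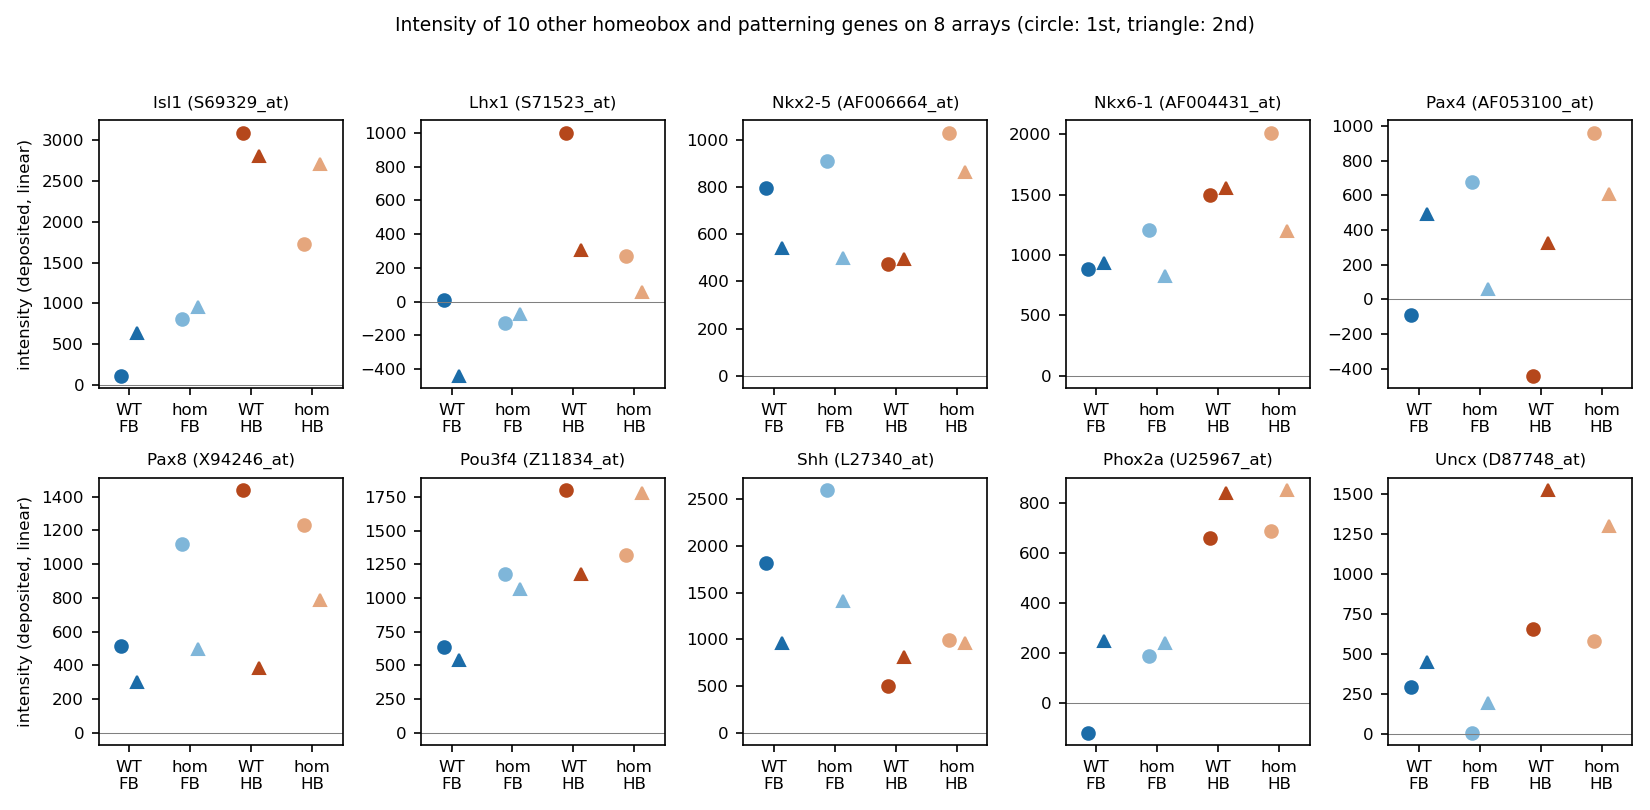
Deposited intensity (linear y axis) of 10 other homeobox and patterning genes, the 2 with the smallest p between the regions in each family list, in wild-type (WT) and Pax6 homozygous (hom) forebrain (FB) and hindbrain (HB), with the 1st array as a circle and the 2nd as a triangle. Isl1, Lhx1, Phox2a and Uncx stand higher on all 4 hindbrain arrays than on any forebrain array, and the readings of Pax4 and Nkx2-5 scatter across the groups.

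Genes with the most similar pattern were found by Pearson correlation of log2 values over the 8 arrays, among 4838 probe sets with 1 symbol. Genes that differ between the 2 regions correlate for that reason alone, and r is given as a description. Lhx2 was closest to Fgf17, a growth factor of the isthmus and rostral forebrain (r = 0.992), Dlk1 (0.989) and Igfbp2 (0.971), an insulin-like growth factor binding protein. Fgf17 was above noise on 3 forebrain and 0 hindbrain arrays. Its hindbrain readings were all negative and were raised to the floor. Dlk1 read 15412 and 16846 in wild-type forebrain and 3543 and 4533 in wild-type hindbrain. Nkx2-1 was closest to Lox (0.978), Fgf17 (0.974) and Igfbp2 (0.965). Alx1 and Dlx5 shared Igfbp2 (0.987 and 0.955) and Ptprz1, a receptor phosphatase of neural progenitors (0.983 and 0.970), with Fgf17 (0.976) next for Alx1 and Akr7a2 (0.958) for Dlx5.

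The 3 genes closest to Hoxa5 were Actc1, the cardiac and embryonic muscle actin (r = 0.998), S100a1 (0.997) and Tnnc2, a skeletal muscle troponin (0.996). Actc1 read 16621 and 14605 in wild-type and 16999.6 and 13746 in Pax6 homozygous hindbrain and was above noise on 0 of 4 forebrain arrays. Hoxd3 was closest to Cartpt, a neuropeptide precursor (0.985), Errfi1 (0.982) and Cask (0.976). Cartpt was above noise on 0 forebrain and 3 hindbrain arrays. Pax6, which was not called between the regions, was closest to the phosphodiesterase Pde5a (0.963), the corepressor Tle4 (0.958) and Tubgcp6 (0.951). Each was higher on the 1st than on the 2nd array in all 4 groups, as Pax6 was. Pde5a was above noise on 0 forebrain and 2 hindbrain arrays. Hoxc4 was closest to Pnck (0.981), Efna5 (0.966) and Nxt1 (0.940), on readings of its own that were all below noise.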

How the data were processed

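Per the labels' protocols, poly(A) RNA of each part was amplified to biotin-labelled cRNA and hybridised to an Affymetrix rat U34A array. The deposited value is an intensity for each probe set on each array, linear and in 18.3% to 22.3% of cases negative. The authors' software and scaling were not given in the sources used here. The number of arrays limits the precision.

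Gene names came from the platform annotation, in which 7018 of 8799 probe sets have 1 symbol, 308 several and 1473 none. The Entrez identifiers of all 8 members matched the RefSeq gene table. Log2 was taken after raising lower values to a floor, the pooled 25th percentile (45.9). Probe sets exceeding the pooled 40th percentile (255) on 2 or more arrays, without 59 array controls, were tested (5881). All 8 arrays entered 1 limma 3.58.1 model (R 4.3.3) with 4 group means and eBayes with an intensity trend (4 residual and 4.63 prior degrees of freedom). P-values were two-sided. The code was tested on simulated data.

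The members and gene lists were chosen with earlier results of these data known. Named beside the members were, for each homeobox and patterning list, genes past the threshold and the 2 with the smallest p between regions, and the 3 genes most similar to each tested member. Hoxb7, Hoxc8 and the genes named from tissue marker lists were chosen after their values were seen. The alternatives were another floor, a generalised log, no filter, quantile normalization, no trend, the replicate number as a block, the compared arrays alone, the mean of a gene's probe sets and each array left out.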

Additional observations from a re-analysis of the deposited data

Results flagged for a closer look

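Dlx5 (D31734_g_at) was lower on both Pax6 homozygous than on both wild-type arrays in forebrain (747 and 678 against 1053 and 995) and higher on both in hindbrain (298 and 280.5 against 226 and 268). It is given here because the genotypes separated in opposite directions in the 2 regions. Separation without overlap, in either direction, was seen for 23% of probe sets in forebrain and 34.5% in hindbrain. How many probe sets separated in opposite directions in the 2 regions was not counted. The fitted interaction of Dlx5 was -0.757 on the log2 scale and did not pass (adjusted p = 0.9995, limma). Of its 4 hindbrain readings, 1 was above noise.

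Isl1 (S69329_at) moved the other way, higher on both Pax6 homozygous arrays in forebrain (805 and 955 against 107 and 635) and lower on both in hindbrain (1726 and 2705 against 3096 and 2807). Its interaction was 2.20 on the log2 scale and did not pass (adjusted p = 0.9995). The 1st wild-type forebrain reading (107), on which it rests in part, was not above noise. The second Isl1 probe set, S69329_g_at, read 355 and 493 against 134 and 468 in forebrain and 918 and 1273 against 857 and 1329.8 in hindbrain. By this probe set the genotypes overlapped in both regions.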

How the results depend on the processing

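No member difference that passed changed direction in any alternative. Of 698 recomputed member values, 670 stayed on their side of the threshold with their direction where called, 22 lost and 6 gained a call. The number of member probe sets past the threshold was within 1.5 times its value in all alternatives, and with 1 array left out it was 3 to 4 (4 with all arrays) in wild-type, 3 to 4 (4) in Pax6 homozygous embryos and 4 to 5 (6) over both genotypes, and 0 for each genotype comparison and the interaction. Over all probe sets the counts moved more. With 1 array left out they were 23 to 49 (46 with all arrays) between the regions in wild-type, 14 to 32 (27) in Pax6 homozygous embryos, 45 to 82 (89) over both genotypes, 0 to 5 (1) between genotypes in forebrain, 1 to 3 (1) in hindbrain and 0 to 1 (0) for the interaction. Without the 1st wild-type hindbrain array the wild-type count was 23. Without the 1st or the 2nd Pax6 homozygous hindbrain array it was 16 or 14 in Pax6 homozygous embryos and 47 or 45 over both genotypes, where it was 53 without the 2nd wild-type hindbrain array. Between genotypes in forebrain it was 5 or 3 without the 1st or the 2nd wild-type forebrain array and 0 or 2 without the 1st or the 2nd Pax6 homozygous one. With the compared arrays alone they were 26 in wild-type, 0 between genotypes in forebrain and 2 in hindbrain. With the floor at the pooled median, without a filter and without an intensity trend they were 3, 0 and 0 between genotypes in forebrain, 15, 22 and 5 in hindbrain, and 8, 13 and 4 for the interaction. The replicate number as a block gave 65 between the regions in Pax6 homozygous embryos, 139 over both genotypes and 2 between genotypes in hindbrain. Under the block 6 member probe sets passed in wild-type and 5 in Pax6 homozygous embryos, with Hoxd3 added in both (adjusted p = 0.0475 and 0.0229) and Dlx5 in wild-type (0.039). For arrays that share a number, deviations from the group means correlated with r from 0.275 to 0.465. With 2 numbers this does not establish pairing, so the block is given here alone. The cause of these shifts was not tested. Readings below an array's noise level limit Hoxd3, Dlx5 and the lower side of Nkx2-1, Alx1 and Hoxa5.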
